A study of Mus musculus with 4 samples.

Results

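Stathmins and structural microtubule-associated proteins (MAPs) were examined in a map of RREB1 binding in mouse cerebellum. The set held 10 genes, the 4 stathmins Stmn1, Stmn2, Stmn3 and Stmn4 and the 6 structural MAPs Map1a, Map1b, Map2, Map4, Map6 and Mapt. A gene counted as listed when a row of the peak table carried its symbol, and genes without a row were kept and described as well. Of the 10 genes, 5 had a row among the 1933 rows of the table. The chromatin came from 3-week-old mice that all carried the transgene Tg(PCP2-Rreb1/3V5)20/J on a C57BL/6J background, in which a Purkinje cell promoter drives the V7 transcript of Rreb1 with 3 V5 tags. ChIP with a V5 antibody gave 2 libraries, each from a separate mouse (1 female, 1 male), and the 2 input libraries were taken from the same lysates without antibody. The animals were not pooled, both came from a single transgenic line, and no library from mice without the transgene was among the 4 samples. The lysate was made from whole cerebellum, whereas the promoter is active in Purkinje cells, and a peak table holds no expression level by which the tissue could be checked.

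RREB1 is a zinc finger transcription factor with several DNA-binding fingers. Stathmins bind free tubulin and promote the shrinkage of microtubules, and their phosphorylation releases the tubulin. Structural MAPs bind along the microtubule wall, stabilize it and set the spacing between neighbouring microtubules. In neurons these proteins are sorted between the axon and the dendrites, and Purkinje cells build the most elaborate dendritic tree of the cerebellum.

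Peaks were listed for Stmn2, Stmn4, Map1a, Map2 and Map4, which is 5 of 10 genes (50%). In the whole table, 1640 of 21883 protein-coding genes (7.49%) had a listed peak. A peak within 5 kb of a start was listed for 4 of the 10 genes and for 797 of all protein-coding genes (3.64%). A peak in the promoter class, which spans the last 1 kb before a start and the first 100 bp after it, was listed for 2 of the 10 genes and for 636 of all protein-coding genes (2.91%). The genes were chosen with results of these data known, and the study itself names Stmn2, Stmn4 and Map1a among its targets, so the count is a description and was not tested. Each gene has 1 row at most and no row carries a read count, a score, a width or an animal, so peak height and the spread between the female and the male are unknown.

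The listed genes were spread over the families. Stathmins had a row for 2 of 4 genes and the MAPs for 3 of 6 genes. Within the MAPs, the MAP1 family had 1 of 2 genes, the family of Map2, Map4 and Mapt had 2 of 3 genes, and Map6 had none.

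**Figure D1:**
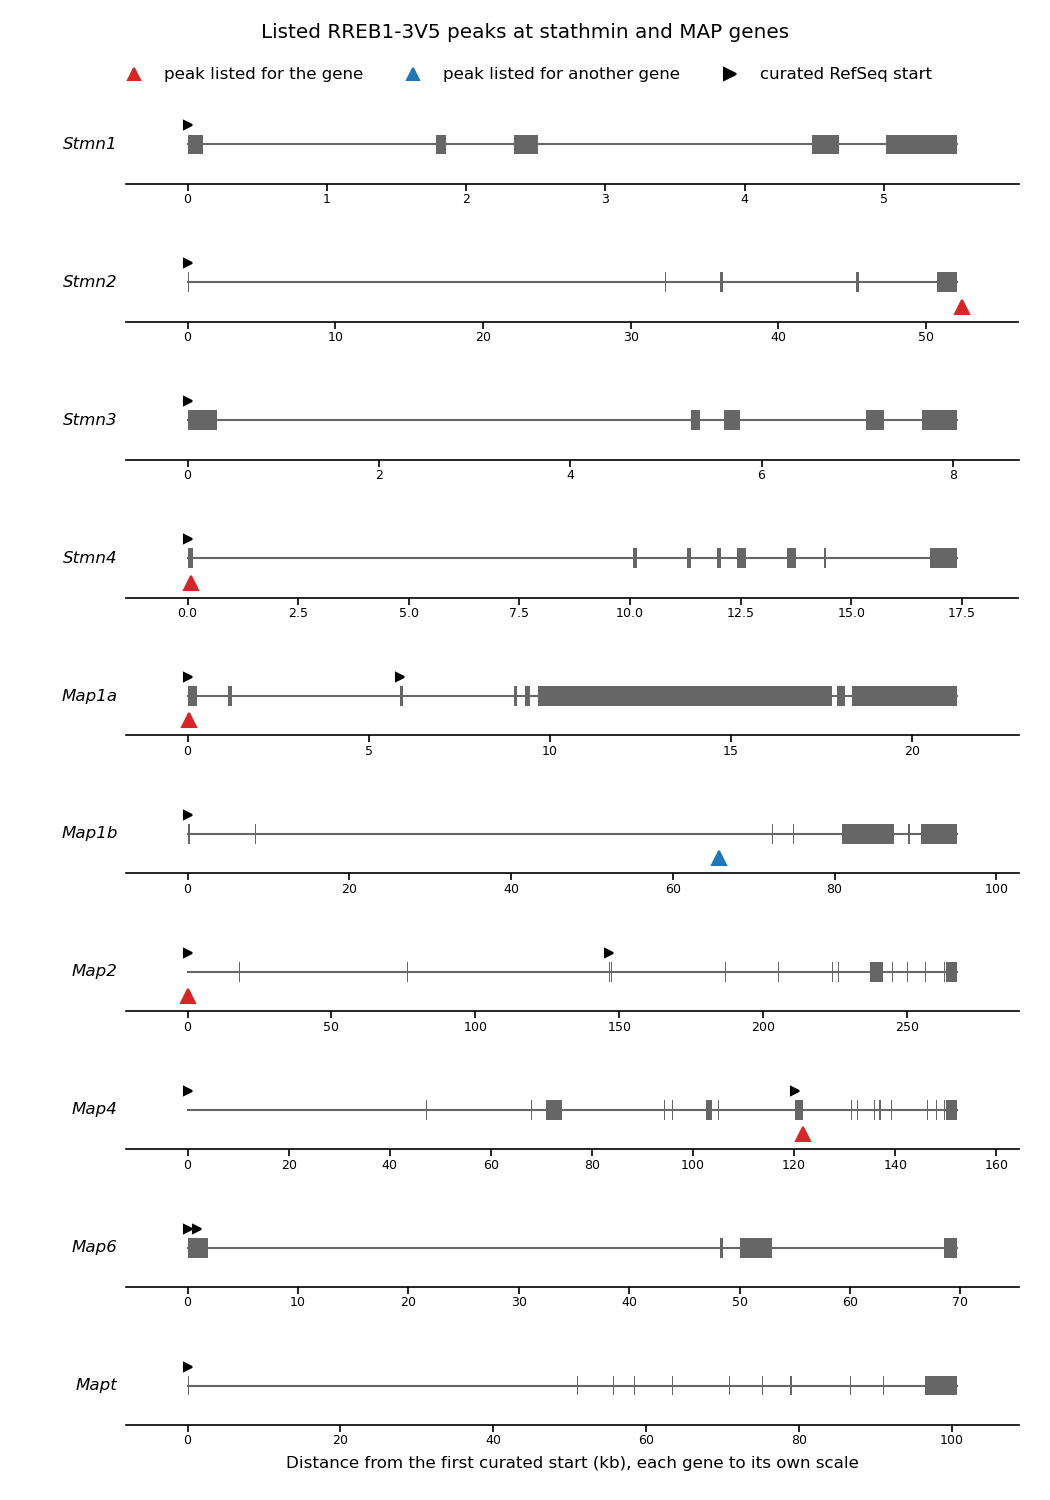
Gene models of the 10 genes with the listed RREB1-3V5 peaks, plotted in kb from the first curated start, each gene on its own scale and read from left to right. Boxes are exons, black arrowheads are curated RefSeq starts, red triangles are peaks listed for the gene and the blue triangle is the peak inside Map1b that is listed for another gene. The red triangles of Stmn4, Map1a and Map2 sit at the left end, that of Map4 at its inner start and that of Stmn2 past the right end.

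The reference sequence around the listed positions is given for Stmn2, Map2, Map4 and the peak inside Map1b. Except for Map4, the motifs and base composition described further on for the 200 bp around the position can be read in it. The windows of Stmn4 and Map1a lie largely in their first exons and are not printed here. All runs are from GRCm38, which has the coordinates of mm10, and are written 5′ to 3′ along the strand of the gene. Capitals mark E-boxes, the motif CANNTG bound by basic helix-loop-helix factors, that lie whole within the run. The Map4 stretch begins at the first base of the intron, because the bases before it are exonic. It has 106 of the 200 bases. The Map4 E-boxes lie in the exonic part, and the base composition given for Map4 is that of all 200 bases.
Stmn2, past the 3′ end, chr3:8561838-8562037: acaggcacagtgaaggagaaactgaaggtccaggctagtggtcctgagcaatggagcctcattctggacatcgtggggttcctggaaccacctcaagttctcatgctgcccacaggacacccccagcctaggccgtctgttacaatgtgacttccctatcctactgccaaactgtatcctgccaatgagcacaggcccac
Map2, first intron, chr1:66175506-66175705: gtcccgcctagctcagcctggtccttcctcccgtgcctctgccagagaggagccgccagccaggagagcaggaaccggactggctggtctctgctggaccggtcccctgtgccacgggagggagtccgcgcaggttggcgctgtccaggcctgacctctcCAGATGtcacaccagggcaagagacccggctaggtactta
Map4, first intron of the short transcripts, chr9:110053523-110053628: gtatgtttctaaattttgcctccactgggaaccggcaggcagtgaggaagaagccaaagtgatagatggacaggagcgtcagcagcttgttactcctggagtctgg
Map1b, second intron, minus strand, chr13:99450808-99451007: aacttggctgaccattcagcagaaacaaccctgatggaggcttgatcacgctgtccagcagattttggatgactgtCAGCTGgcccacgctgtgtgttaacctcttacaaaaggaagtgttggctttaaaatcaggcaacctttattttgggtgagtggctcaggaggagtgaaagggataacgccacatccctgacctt

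The listed position of Stmn4 was the nearest to a start among the stathmins. Stmn4 encodes a neuronal stathmin that is anchored to membranes through its N-terminus. Its row, peak number 900, stands at position 66344364 of chromosome 14 in the promoter class, 68 bp downstream of the start. The gene lies on the plus strand from 66344296 to 66361680 and is 17.39 kb long. By the RefSeq models the position falls in exon 1, within the 5′ UTR and 47 bp before the end of that exon. Of the 1932 peaks on assembled chromosomes, 259 (13.41%) were nearer to a start than this one. The next listed peaks were those of Ints9, 1394.3 kb before, and Pnma2, 612.8 kb after. Between Stmn4 and Pnma2 lay 1 peak number without a row, which could be another peak of Stmn4 or of Pnma2, and its place is unknown.

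Stmn2 differed from Stmn4 in where the listed peak was. Stmn2 encodes the growth-associated stathmin of axons and growth cones. Its row, peak number 1730, stands at position 8561938 of chromosome 3 and is classed as TTS, the class around transcript ends. The gene runs on the plus strand from 8509527 to 8561604, so the position was 334 bp past its 3′ end and 52.41 kb from its start. Only 14 of the 1932 peaks (0.7246%) were in the TTS class, with a median distance of 10.99 kb from a start, and the Stmn2 peak was the farthest of the 14 from a start. Among all peaks, 1452 (75.16%) were nearer to a start. No listed peak lay inside the gene. The preceding listed peak, that of 1700010I02Rik, was 774.1 kb before the Stmn2 position, and 1 peak number without a row lay between them. None was missing up to the next peak, that of Pag1. The 774.1 kb hold the whole gene with its start. The unlisted number could therefore be another peak of Stmn2, or one of 1700010I02Rik, and its place is unknown.

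Neither of the other stathmins had a row. Stmn1, the broadly expressed cytosolic stathmin of dividing and migrating cells, is a gene of 5.524 kb on chromosome 4. The nearest listed peak was the promoter peak of Pafah2, 72.23 kb upstream of the Stmn1 start. Stmn3, a membrane-anchored neuronal stathmin, is a gene of 8.042 kb on the minus strand of chromosome 2, and the nearest listed peak, that of Zbtb46, was 149.1 kb upstream of its start. Peak numbers run in the order of position on each chromosome, so a number missing between flanking rows marks where an unlisted peak could lie. No number was missing between Pafah2 and Syf2, the 598.3 kb that hold Stmn1, or between Eef1a2 and Zbtb46, the 307.6 kb that hold Stmn3. Both genes thus stood in stretches to which the merged list, as numbered, assigned no other peak.

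Among the MAPs, Map1a had the peak nearest to a start. MAP1A is the MAP1 protein of mature neurons and is rich in dendrites. The row of Map1a, peak number 1624, stands at position 121289633 of chromosome 2 in the promoter class, 31 bp downstream of the start, and 116 peaks of the table (6.004%) were nearer to one. The gene lies on the plus strand from 121289602 to 121310832. The position is in exon 1, within the 5′ UTR. Map1a has another curated start at 121295454, and the peak was 5.821 kb upstream of it, so only the upstream start carried a promoter peak. No peak number was missing between the flanking peaks of Tyro3 and Shf, which lie 2.565 Mb apart, so the numbering left no other peak for the inner start.

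The sequence just before the Map1a start is shown because it holds the GC boxes of this peak, which lie outside the 200 bp window. It is the part of the RefSeq promoter (GRCm38.p6) before the first exon of a predicted transcript, which begins at 121289590, ahead of the curated start, and capitals mark matches to GGGCGG or its reverse complement, some of which overlap each other.
Map1a promoter, chr2:121289352-121289589: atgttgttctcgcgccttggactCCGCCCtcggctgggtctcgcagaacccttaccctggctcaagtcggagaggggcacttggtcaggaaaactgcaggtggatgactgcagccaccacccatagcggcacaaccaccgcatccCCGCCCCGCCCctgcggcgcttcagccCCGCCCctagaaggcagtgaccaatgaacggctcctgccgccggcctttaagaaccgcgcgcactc

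Map1b, the MAP1 gene of growing axons and the closest relative of Map1a, had no row of its own, but a listed peak lay inside it. Map1b runs on the minus strand of chromosome 13 from 99421464 to 99516602. Peak number 801 at position 99450908 fell in intron 2 of 6, 65.69 kb downstream of the Map1b start. The table gives this peak to the noncoding gene 6430562O15Rik, whose start, at 99412826, is nearer, with the peak 38.08 kb upstream of it. A predicted inner start of Map1b at 99447621 is nearer still, and the peak was 3287 bp upstream of that one. No peak number was missing between the flanking peaks of Mrps27 and Mccc2, so the inner peak was the only one numbered in those 662.3 kb. The promoter of Map1b therefore carried no listed peak, in contrast to that of Map1a.

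Map2 encodes the main MAP of dendrites. Its row, peak number 61, stands at position 66175606 of chromosome 1, 277 bp downstream of the start. It is classed as intron 1 of 13 and not as a promoter, because the position is 111 bp past the end of the first exon and beyond the reach of the promoter class. Of the 1932 peaks, 600 (31.06%) were nearer to a start. Among the 236 peaks in a first intron, which were 37.4% of the 631 intron peaks, only 1 was nearer to its start than that of Map2, and their median distance was 10.87 kb. Map2 is the longest of the 10 genes at 267.3 kb and has another curated start 146.1 kb downstream of the peak. No number was missing between the flanking peaks of Pth2r and Cps1, which lie 2.299 Mb apart.

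The peak of Map4 was nearest to the inner start of the gene. MAP4 is the broadly expressed relative of MAP2 and tau and is not restricted to neurons. The row of Map4, peak number 2996, stands at position 110053529 of chromosome 9, 1.508 kb downstream of the start at 110052021, and 762 peaks (39.44%) were nearer to a start. That start belongs to 2 of the 6 curated transcripts, and the position is 7 bp into the intron that follows their first exon. The other 4 transcripts begin at 109931774, 121.8 kb upstream of the peak, and in them the same position is in intron 8. No number was missing between the flanking peaks of Mst1r and Ccrl2, which lie 3.16 Mb apart. The upstream start of Map4 thus had no listed peak.

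Mapt and Map6 had no row. Mapt encodes tau, the MAP of axons, and is a gene of 100.7 kb on chromosome 11. The nearest listed peak was 41.13 kb upstream of the Mapt start, in intron 1 of 1 of Sppl2c and 3.975 kb downstream of the Sppl2c start. Here 2 peak numbers were missing in the 1.163 Mb between the peaks of Sppl2c and Mrc2. The paper assigned 1932 genes to peaks and the table lists 1932 genes, so a peak assigned to Mapt should have left a row. The missing numbers could be peaks of other genes, and their places in that stretch are unknown. Map6, which encodes the protein that makes neuronal microtubules resist cold, is a gene of 69.69 kb on chromosome 7. The nearest listed peak was the promoter peak of Uvrag, 125.9 kb upstream of the Map6 start. No number was missing in the 3.069 Mb between Uvrag and Pgap2.

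**Figure D2:**
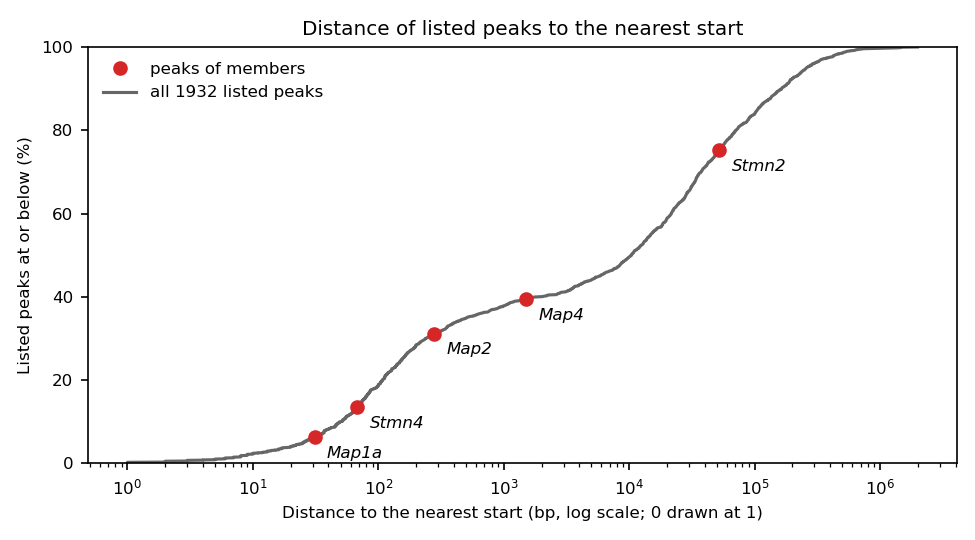
Cumulative share of listed peaks, in percent, against the distance to the nearest start in bp on a log scale, for the 5 named genes (red points) and all 1932 peaks on assembled chromosomes (grey line). Map1a, Stmn4, Map2 and Map4 lie on the left part of the curve at 31, 68, 277 and 1508 bp, and Stmn2 lies on the right part at 52411 bp.

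Compared with the rest of the table, 4 of the 5 positions were near a start. Over all 1932 peaks the median distance was 10.45 kb, and 851 peaks (44.05%) were within 5 kb. All 5 positions were downstream of the start, as were 896 of all peaks (46.38%) and 250 of the 851 peaks within 5 kb (29.38%). By class, the 5 positions comprised 2 promoters, 2 introns and 1 TTS, whereas all peaks comprised 34.73% promoters, 32.66% introns and 28.36% intergenic positions. None of the 5 was intergenic.

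The 5 peaks stood farther from other listed peaks than the median peak did. The nearest listed peak on either side was 774.1 kb away for Stmn2, 612.8 kb for Stmn4, 1076.6 kb for Map1a, 626.5 kb for Map2 and 1007.6 kb for Map4. All 5 distances exceeded the median of 365.4 kb over the 1892 peaks with a listed neighbour on both sides. Of those peaks, 68.13% had a nearer neighbour than Stmn4 and 84.36% a nearer one than Map1a, the lowest and highest shares. For the stretch between both neighbours, 53.12% had a shorter one than Stmn4 and 72.67% a shorter one than Map4, again the lowest and highest shares. A stretch without a missing number between both neighbours was seen for 3 of the 5 peaks, Map1a, Map2 and Map4, and for 691 of the 1892 peaks (36.52%).

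The room around the starts was larger at the median for genes with a row. The nearest-start domain, the length over which a start of the gene is the nearest of any gene and from which a peak would be given to it, had a median of 165.8 kb (42.73 to 343.9 kb) for the 5 genes with a row and 43.46 kb (15.88 to 128 kb) for the 5 genes without one. The ranges overlapped. Stmn3 had the shortest domain at 15.88 kb and Map2 the longest at 343.9 kb. The length of the genes showed no such order, with a median of 52.08 kb (17.39 to 267.3 kb) with a row and 69.69 kb (5.524 to 100.7 kb) without one. The part of the domain in the count of listed genes was not tested.

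Base composition differed among the 5 sites. In the 200 bp around the position, GC content was 67% at Map1a and 66.5% at Map2, above that of 92.44% and 91.46% of all peaks. It was 55% at Stmn2, 54% at Stmn4 and 50.5% at Map4, beside a median of 55.5% over all peaks. The Map1a window held 21 CpG dinucleotides, more than the median of 14 in the promoter class, and that of Stmn4, in the same class, held 6. Map2 had 10 CpGs, against a median of 2 for intron peaks, so its window was closer to a promoter than to an intron in composition. Stmn2 had 2 CpGs and Map4 had 3. The peak inside Map1b had 48.5% GC and 3 CpGs. Bases marked as repeats made up 20.5% of the Map4 window, 12% of the Map2 window and 2% of the Stmn4 window, and none of the Stmn2 and Map1a windows.

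Motifs were searched on both strands in the same windows. The NeuroD E-box, written here as CCATCTGC or CCATCTGT, is a preferred site of the NeuroD family of neuronal basic helix-loop-helix factors, and it contains the core CATCTG, which is itself a CANNTG. None of the 5 windows held the NeuroD E-box, beside 430 of all 1932 windows (22.26%). Its share depended on the class, with 2.832% of promoter windows, 36.45% of intron windows and 21.43% of TTS windows. The core was present in 1 of the 5 windows, that of Map2 with its centre 62.5 bp downstream of the position, and in 35.09% of all windows. Any E-box was present in 2 of the 5 windows, Map2 and Map4, and in 71.17% of all windows. The Map4 window had CACGTG 12.5 bp before the position, at the end of the exon, and CAGCTG 94.5 bp before it. The peak inside Map1b had CAGCTG with its centre 20.5 bp before the position along the gene.

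Wider windows brought in NeuroD E-boxes at Stmn2 and Map1a. In 1000 bp around the position, 2 of 5 windows and 593 of all 1932 windows (30.69%) held one. The site of Stmn2 was centred 340.5 bp past the listed position, beyond the gene end, and that of Map1a was centred 292.5 bp past it, in the first intron. All 5 windows of this length held the core, as did 61.28% of all windows. Capitals mark the NeuroD E-boxes in these sites of 25 bases and, for Map4, the E-box just before the end of the first exon of the short transcripts.
Stmn2 site, chr3:8562266-8562290: ttaaattcaCCATCTGTctctgcct
Map1a site, chr2:121289913-121289937: gcctctccgCCATCTGCattcatct
Map4 site, chr9:110053504-110053528: gaagagacccCACGTGatggtatgt

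The GT box CCACCCC, a part of the RREB1 consensus, was in none of the 5 windows of 200 bp and in 147 of all windows (7.609%). The GC box GGGCGG was in 1 of the 5, that of Stmn4 with its centre 90.5 bp after the position, and in 441 of all windows (22.83%). A match is a description of letters and not a measured site.

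**Figure D3:**
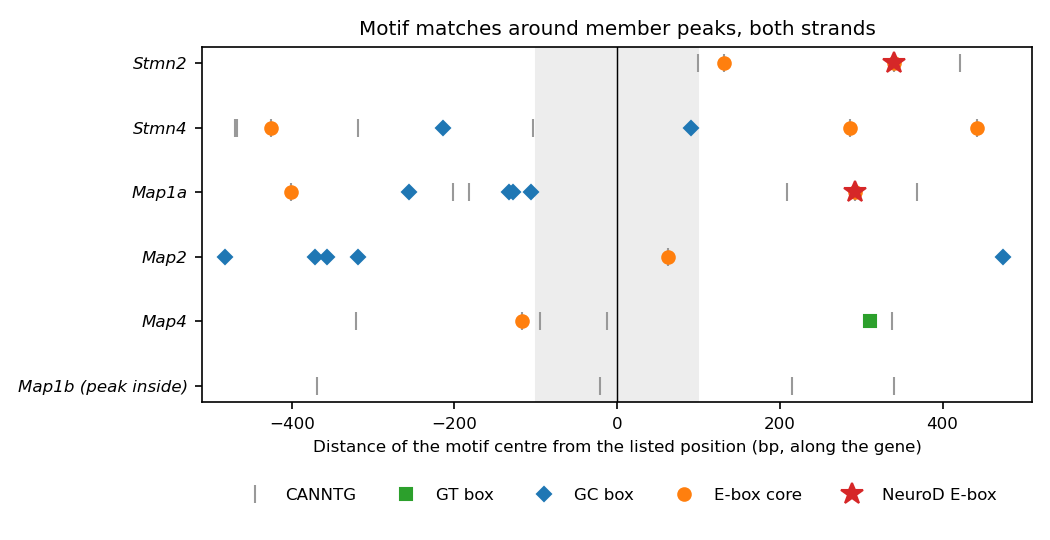
Motif matches on both strands, at their distance in bp from the listed position along the gene, for the 5 named peaks and the peak inside Map1b. The grey band is the 200 bp window. Stars are NeuroD E-boxes, at 340.5 bp for Stmn2 and 292.5 bp for Map1a, circles the core CATCTG, diamonds GC boxes, the square a GT box and ticks any CANNTG.

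Promoters of genes with and without a row were compared on the RefSeq promoters, from 250 bases before to 50 after a start, which matched Stmn3, Map1a, Map1b, Map2 and Map4 with 6 promoters. None of the 6 held a NeuroD E-box, beside 3.071% of 32851 promoters. The core CATCTG was in 2 of the 6, Stmn3 and Map1b, neither of which had a row, and in 17.15% of all promoters. GC boxes were in 4 of the 6, with 5 matches in Map2, 4 in Map1a, 3 at the upstream start of Map4 and 2 in Map1b, and in 35.66% of all promoters. Map4 showed a contrast between its promoters. The upstream promoter, with no listed peak, had 73.33% GC and 42 CpGs, and the inner promoter had 46% GC, 5 CpGs and no GC box. The listed position lies outside the inner promoter as well, 1.508 kb downstream of its start. The medians over all promoters were 52.67% GC and 7 CpGs. The Map1b and Map1a promoters had the same GC content of 65.67%, with 23 and 27 CpGs, although a peak was listed at Map1a alone.

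Other microtubule genes were counted in the same way. Of 85 genes in 6 further lists, 14 (16.47%) had a listed peak, 7 had one within 5 kb and 4 had one in the promoter class. Over all protein-coding genes the shares were 7.49%, 3.64% and 2.91%. The differences from all genes and from the stathmins and MAPs were not tested. Other structural MAPs had 3 of 13, with Map9 at 19 bp upstream of its start, Mtus1 at 3651 bp downstream and Mtcl1 at 123.8 kb. Plus-end proteins, which ride on growing microtubule tips, had 5 of 17, with Clip1 at 4277 bp downstream of its start, Clip2 at 21.42 kb, Dst at 22.85 kb and Ckap5 at 34.36 kb upstream. The doublecortin family had 1 of 4, Dclk1 in an exon at 28.11 kb. Kinases that act on stathmins and MAPs had 3 of 16. These were the tau kinases Ttbk1, 54 bp upstream of its start, and Cdk5, 104 bp upstream, and the Cdk5 activator gene Cdk5r2 in the TTS class. Tubulin-modifying enzymes had 2 of 24 (8.333%), near the share of all protein-coding genes. These were the polyglutamylase subunit gene Tpgs1 at 355 bp upstream and the detyrosinating enzyme gene Vash1 in the TTS class at 21.34 kb. Minus-end and severing proteins had 0 of 11.

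**Figure D4:**
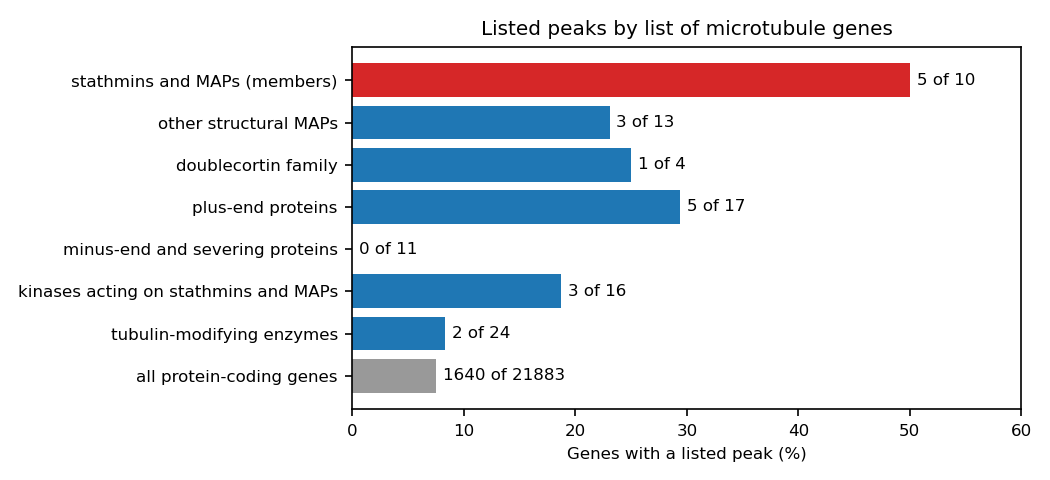
Share of genes with a listed peak, in percent, for the stathmins and MAPs (red), 6 lists of other microtubule genes (blue) and all protein-coding genes (grey), with counts beside the bars. The red bar stands at 50%, the blue bars between 0% and 29.41% and the grey bar at 7.49%.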

How the data were processed

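The only values used were those of 1 table deposited for the series. According to the methods, the authors used fastp for adapter trimming, Bowtie2 for alignment to mm10 and Sambamba to drop duplicates and reads with several matches. MACS3 called peaks at q 0.05, bedtools joined those that overlapped between samples, and HOMER annotated the result. The sources used here give neither the versions nor how the inputs entered peak calling. Per the file header, each row holds a peak number, a position, a region class and a signed distance to a start in bp. Of the 1933 positions, 1911 are 1 bp wide. Which point of a peak the position marks is not given, so distances and motif offsets refer to the listed position alone. The table lists each of 1932 genes once, and 1110 of the numbers up to 3043 have no row. How the kept row of a gene was chosen is unknown, and some numbers may belong to no separate peak. Depth is unknown.

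Rows were matched by gene symbol and checked by Entrez number. Gene models came from RefSeq on GRCm38, with curated transcripts used unless stated, and 1801 of 1932 distances (93.22%) were identical when recomputed. Motifs were counted with Python 3.11.15 and pandas 2.3.3 in sequence read with samtools 1.23.1, and the counting was tested on simulated data. The members and lists were chosen with earlier results of these data known. All 10 members were named, with the flanking listed peaks and up to 4 genes of each other list, nearest to a start first. Groups came from the sample labels. No test was run, because the table has no value per library.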

Additional observations from a re-analysis of the deposited data

How the results depend on the processing

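Of 20 alternative settings, 12 left a result within its limits and 8 moved it. For counts the limits were wide, so 4 or 6 genes beside 5 passed as unmoved, as did 5 with other genes. A distance counted as moved by any change. A window of 100 bp could not move the 0 NeuroD E-boxes, since it lies inside the window of 200 bp. The count of stathmin and MAP genes with a listed peak was 5 and became 2 for the promoter class alone, Stmn4 and Map1a. It was 4 within 5 kb and within 50 kb, since Stmn2 left, and 6 by the nearest start of any RefSeq transcript, predicted ones included, since Map1b entered. Counting any listed peak in the gene or 5 kb upstream gave 5 again, with Map1b in and Stmn2 out. Peak windows with a NeuroD E-box numbered 0 and became 2 in windows of 1000 bp and 1 for the core CATCTG. Promoters with a NeuroD E-box numbered 0 of 6, and 2 of 6 for the core. From 1000 bases before to 500 after, 3 of 8 curated starts held one, as did 15.57% of 24269 starts. These were the first starts of Map1a and Map2, both among the 6, and the inner start of Map1a, which was not. The distance of the Stmn4 peak was 68 bp and 65 bp from a predicted start. Other microtubule genes with a listed peak numbered 14 and became 7 within 5 kb and 4 in the promoter class. By the nearest RefSeq start they numbered 14 again, with 7 plus-end proteins, 2 other structural MAPs and 0 of the doublecortin family. The window of 1000 bp and the promoter class of the other genes were chosen after seeing the data. No paired analysis was possible because the table holds no value per library, and for the same reason no animal could be left out. The table gives no height or width, so the strength of each peak could not be compared.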
